A study of Homo sapiens with 8 samples.

Results

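The genes described here are 10 listed heat shock chaperone and co-chaperone genes, named by symbol: HSPA1A, HSPA1B, HSPA8, HSPH1, DNAJB1, BAG3, HSP90AA1, HSP90AB1, HSPB1 and HSPD1. Of these, 9 have a row among the 26902 entries of the deposited table, of which 18751 were matched to a protein-coding gene, and HSPA1B was not analysed here. The list is called cytosolic, but the product of HSPD1 works in mitochondria. All 9 passed the filter on low values and are among the 2712 mRNAs tested.

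The libraries came from U2OS, an established human osteosarcoma cell line. Cells overexpressed QKI7, 1 of the protein isoforms made from the gene QKI, whose products bind RNA, or carried an empty vector. All cells, the vector controls included, had been exposed to 0.5 mM sodium arsenite (NaAsO2) for 1 h, which causes oxidative stress. Ribosome footprints (RNA fragments of 17 to 34 nt recovered with ribosomes) and input RNA were sequenced, which gives 4 groups of 2 libraries each: QKI7 footprint, vector footprint, QKI7 input and vector input. Cells without arsenite were not analysed here, and the effect of arsenite is thus in no comparison. Whether the 2 libraries of a group stem from different cultures is not stated in the labels. The p-values therefore reflect library-to-library spread only, which may be technical.

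Heat shock chaperones bind unfolded proteins and help them fold, keep them soluble or pass them on for degradation. HSP70 proteins do this in cycles of ATP hydrolysis that J-domain proteins start and nucleotide exchange factors end, while HSP90 proteins act on more nearly folded clients and small heat shock proteins hold unfolded ones. Misfolded protein frees the transcription factor HSF1, which binds heat shock elements, inverted repeats of GAA, before the inducible members of these families. Arsenite reacts with protein thiols and is a classic inducer of this response, and it also lowers the translation of most mRNAs.

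The other genes with a row lie at chr11:123057489-123062462 (HSPA8), chr13:31134973-31162388 (HSPH1), chr19:14514769-14560391 (DNAJB1), chr10:119651380-119677819 (BAG3), chr14:102080742-102139749 (HSP90AA1), chr6:44246194-44253883 (HSP90AB1), chr7:76302673-76304292 (HSPB1) and chr2:197486584-197500274 (HSPD1). The span of DNAJB1 overlaps the protein-coding gene TECR, which was at 0.38 to 0.77 TPM in footprints as deposited, and that of HSP90AA1 overlaps WDR20, at 0.03 to 0.14 TPM. Reads in such overlaps cannot be told apart here, since the use of strand is not known. The pseudogene HSP90AB4P, a copy of HSP90AB1, was at no more than 0.02 TPM in footprints and 2.0 TPM in inputs.

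Promoter sequences are shown because the listed genes are known targets of HSF1 and because 2 of them, HSPA1A and HSPA1B, are near copies. Sequences and gene positions are those of RefSeq on the GRCh38.p14 assembly, read 5′ to 3′ on the strand of the gene. HSPA1A (chr6:31815543-31817942) and HSPA1B (chr6:31827738-31830254) encode nearly identical stress-inducible HSP70 proteins and lie 9795 bases apart on the plus strand. The 120 bases before their start sites, at chr6:31815423-31815542 and chr6:31827618-31827737, were identical at 111 aligned bases, or 92.5%, and capitals mark bases that differ or are unaligned:
HSPA1A: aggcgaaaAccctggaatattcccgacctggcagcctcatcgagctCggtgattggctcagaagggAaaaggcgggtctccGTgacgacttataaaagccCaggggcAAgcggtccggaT
HSPA1B: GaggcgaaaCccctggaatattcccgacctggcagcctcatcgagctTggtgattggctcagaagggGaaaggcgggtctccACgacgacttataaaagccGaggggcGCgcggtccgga
Reads of one gene can be assigned to the other where their transcripts are nearly identical. The likeness of the transcripts was not measured here, and bases before the start sites do not give it. The HSPA1A level is therefore uncertain as the level of a single gene throughout. Whether shared reads were assigned alike in footprints and in inputs is not known, so comparisons of HSPA1A between library types carry this limit too.

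A strict form of the heat shock element, made of 3 units (GAA, then TTC, then GAA, with any 2 bases between units), was searched on both strands in windows of 250 bases before to 50 bases after each RefSeq start site, and overlapping matches were kept. It was present in 0.49% of 35116 windows and in 0.798% of the tested mRNAs with a window. Among the listed genes, 4 of 10 had it in at least 1 window: HSPA8, HSP90AA1, HSP90AB1 and HSPD1. The stretches that hold it are printed with each match in capitals. They lie at chr11:123062154-123062386 on the minus strand for HSPA8, chr14:102087095-102087157 on the minus strand for HSP90AA1, chr6:44247753-44247868 on the plus strand for HSP90AB1 and chr2:197500043-197500090 on the minus strand for HSPD1:
HSPA8: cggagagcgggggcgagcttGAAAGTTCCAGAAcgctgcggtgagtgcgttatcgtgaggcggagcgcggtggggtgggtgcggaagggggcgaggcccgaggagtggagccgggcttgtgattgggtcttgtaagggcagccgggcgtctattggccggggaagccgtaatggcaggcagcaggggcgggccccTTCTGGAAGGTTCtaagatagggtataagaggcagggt
HSP90AA1: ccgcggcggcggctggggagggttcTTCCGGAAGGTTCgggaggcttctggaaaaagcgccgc
HSP90AB1: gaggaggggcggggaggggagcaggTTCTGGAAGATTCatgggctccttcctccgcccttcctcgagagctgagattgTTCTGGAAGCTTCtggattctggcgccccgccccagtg
HSPD1: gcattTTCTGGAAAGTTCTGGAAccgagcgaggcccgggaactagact
In HSPA8 the matches begin 230 and 55 bases before the start site, and in HSP90AB1 they begin 165 and 112 bases before it. HSPD1 holds 2 overlapping matches that begin 245 and 240 bases before the start, and HSP90AA1 holds 1 that begins 88 bases before it. For HSP90AA1, HSP90AB1 and HSPD1 the match lies before only 1 of several start sites in the table. In the windows of the other 6 genes, HSPA1A, HSPA1B, HSPH1, DNAJB1, BAG3 and HSPB1, these letters do not occur. Only this exact form was searched, so less strict forms of the element may be present in them.

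Values are TPM, a share of transcripts corrected for length, divided by a scaling factor of each library that was set on mRNAs within the inputs and within the footprints (scaled TPM). Protein-coding entries made up 0.686% to 0.696% of the deposited TPM in QKI7 footprints and 0.709% to 0.710% in vector footprints, and 4.24% to 4.52% in QKI7 inputs and 3.73% to 4.004% in vector inputs. TPM keeps no depth, so the reads behind a value are unknown. QKI was measured at 28.9 and 29.0 scaled TPM in QKI7 footprints and at 0.541 and 0.628 in vector footprints. In inputs it was at 1631 and 1567 scaled TPM with QKI7 and at 3.24 and 3.47 with vector, so each library matched its label. Of 8 mesenchymal marker genes, 5 reached a mean of 1 TPM in inputs, while none of the 15 epithelial, blood and neural markers did.

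HSPA1A was the most abundant listed mRNA, but it was far from the top in footprints. It ranked 2 among protein-coding entries in QKI7 inputs, after QKI, and 1 in vector inputs, but 128 in QKI7 footprints and 237 in vector footprints. In inputs HSP90AA1 and then HSP90AB1 followed it in both constructs, and HSPH1 and BAG3 were lowest. The level of HSPA8, the constitutive HSP70, overlapped that of HSPB1 in inputs of either construct. DNAJB1 lay above both with QKI7 and below both with vector, without overlap. In footprints HSPA8 was highest in both constructs. HSP90AB1, HSPA1A and HSPB1 overlapped with QKI7, while with vector they stood apart in the order HSP90AB1, HSPB1, HSPA1A. DNAJB1, BAG3 and HSPH1 were lowest in footprints, where each overlapped its neighbour in the order. Together the 9 mRNAs made up 0.630% and 0.675% of protein-coding TPM in QKI7 footprints and 0.654% and 0.664% in vector footprints, which overlap. Without HSPA1A the share was 0.51% and 0.539% in QKI7 footprints and 0.591% in each vector footprint library, lower with QKI7 and without overlap. The share of all 9 was 2.51% and 2.52% in QKI7 inputs and 2.32% and 2.33% in vector inputs.

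**Figure D1:**
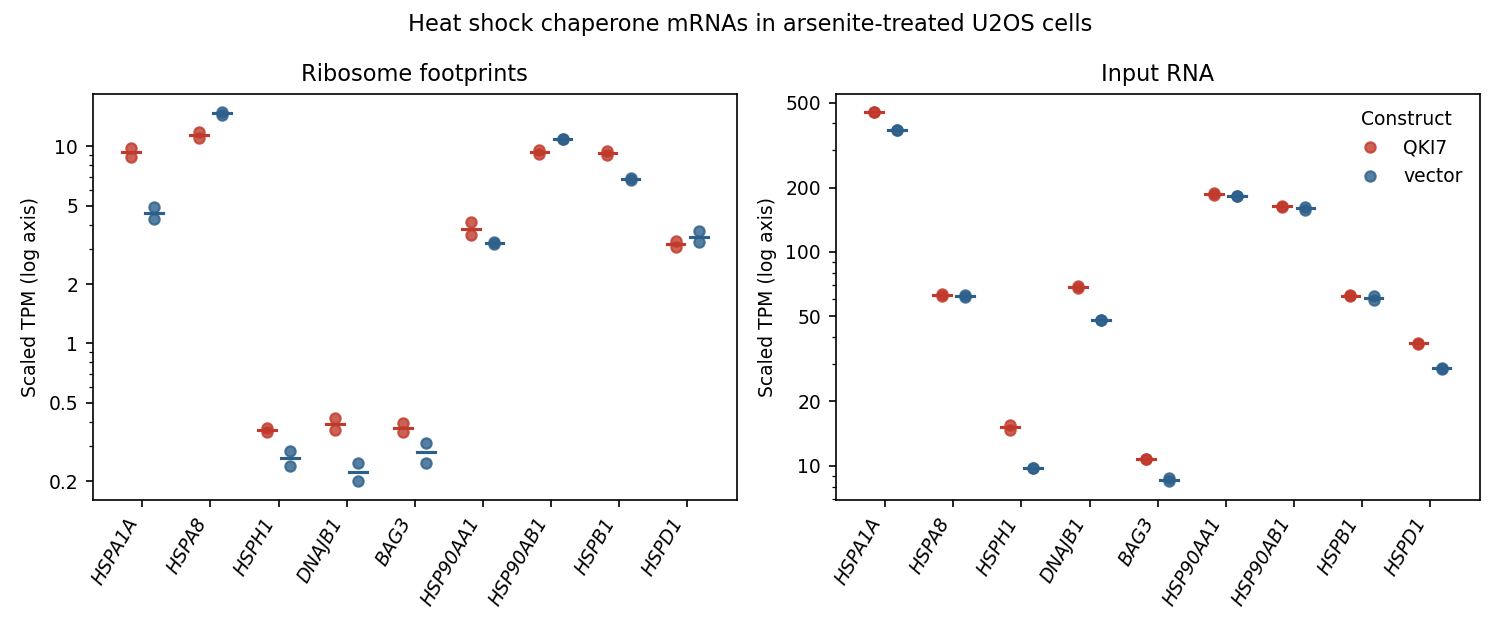
Scaled TPM (log axis) of the 9 mRNAs in ribosome footprints (left) and input RNA (right); each point is 1 library, short lines are means, red is QKI7 and blue is vector. HSPA1A is highest in inputs, at 451.2 to 451.5 with QKI7 and 372.6 to 373.2 with vector, while HSPA8 is highest in footprints.

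How many footprints each mRNA yielded for its input level was compared next, within each construct. Most of the listed mRNAs carried few footprints. Footprint TPM as a percent of input TPM had a median of 12.7% with QKI7 and 12.6% with vector over all 2712 mRNAs. It was lower than that for 7 of the 9 listed mRNAs with QKI7 and for 8 of 9 with vector. DNAJB1, the J-domain partner that delivers clients to HSP70, stood near the bottom of the 2712 mRNAs tested. It was at 0.569% with QKI7 (rank 2 from the lowest) and 0.465% with vector (rank 4). The filter of 0.2 TPM in footprints had already removed mRNAs with few footprints. These ranks and the medians thus hold only among the mRNAs tested. With that filter, percents as low as those of DNAJB1 were open only to mRNAs with high input levels. Among protein-coding entries DNAJB1 ranked 34 in QKI7 inputs and 60 in vector inputs, so its low rank here is partly set by the filter. HSPA1A was at 2.06% with QKI7 and 1.23% with vector. HSP90AA1, the stress-inducible cytosolic HSP90, was at 2.04% with QKI7 and 1.77% with vector. HSPH1, an HSP110 protein that acts as nucleotide exchange factor for HSP70, was at 2.40% with QKI7 and 2.68% with vector. BAG3, another exchange factor of HSP70 that leads clients to autophagy, was at 3.48% with QKI7 and 3.25% with vector. The 5 lowest were thus these 5 mRNAs in both constructs.

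The other 4 lay closer to the median. HSP90AB1, the constitutive cytosolic HSP90, was at 5.72% with QKI7 and 6.80% with vector. HSPD1, the mitochondrial chaperonin HSP60, was at 8.55% with QKI7 and 12.2% with vector. HSPB1, the small heat shock protein HSP27, was at 14.8% with QKI7 and 11.2% with vector. HSPA8 was at 18.1% with QKI7 and 23.7% with vector, above the median in both. These percents set a share of footprint reads against a share of input reads and are not a number of ribosomes per mRNA.

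**Figure D2:**
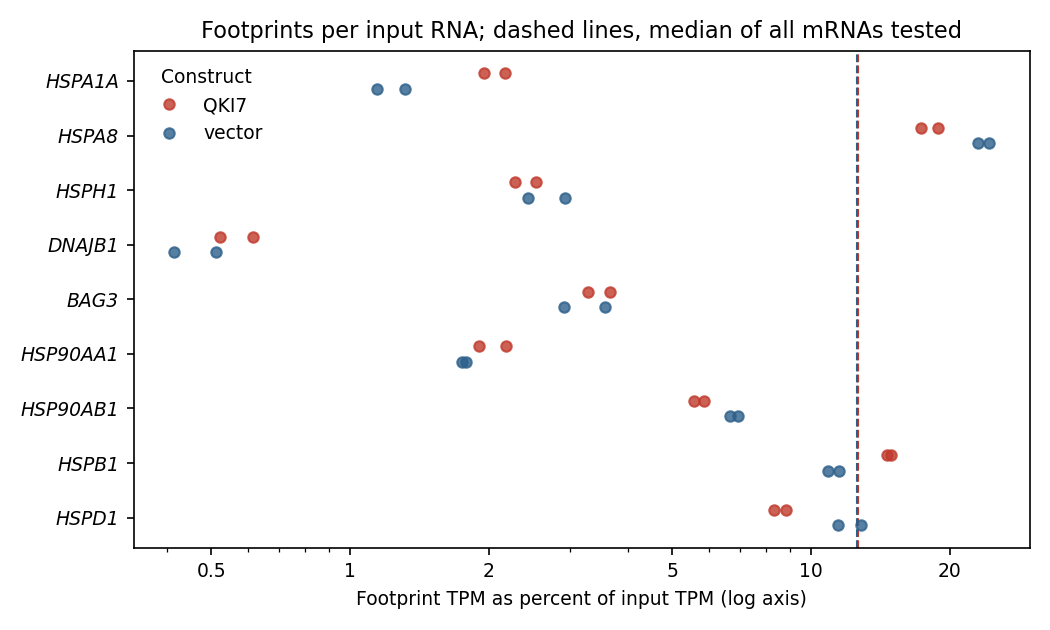
Footprint TPM as a percent of input TPM (log axis) for the 9 mRNAs, with 1 point for each replicate number, red for QKI7 and blue for vector; dashed lines are the medians over 2712 mRNAs, 12.7% with QKI7 and 12.6% with vector. DNAJB1 lies farthest to the left and HSPA8 lies to the right of the medians.

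In limma fits centred on the median of all mRNAs tested, 7 of the 9 were lower in footprints than in inputs with QKI7 and 1, HSPA8, was higher, where 39.7% of all mRNAs tested were called lower, 38.4% higher and 78.1% in either direction. With vector, 7 were lower and HSPA8 was higher, where 40.8% of all mRNAs were called lower, 40% higher and 80.9% in either direction. The median log2 difference of the 9 was -1.84 with QKI7 and -1.88 with vector, where the median over all mRNAs is 0 by construction. DNAJB1 had the lowest values, at -4.45 ± 0.11 with QKI7 and -4.62 ± 0.11 with vector (log2 difference ± SE, n = 2 each; limma adjusted p = 1.26e-09 and 9.65e-10). HSPA1A was at -2.76 ± 0.07 with QKI7 and -3.49 ± 0.07 with vector (limma adjusted p = 1.80e-09 and 4.98e-10). HSPA8 was at 0.37 ± 0.05 with QKI7 and 0.77 ± 0.05 with vector (limma adjusted p = 0.00012 and 7.49e-07). HSPB1 was not called with QKI7 (0.09, limma adjusted p = 0.151), nor HSPD1 with vector (-0.18, limma adjusted p = 0.0517). The direction of HSPA8 depended on the filter and the pseudocount. Over the 403 mRNAs that passed a filter of 5 TPM (inputs) and 1 TPM (footprints) it was -0.24 with QKI7 and 0.21 with vector, and with a pseudocount of 1 TPM it was -0.77 with QKI7 and -0.40 with vector. HSPB1 with QKI7 was at 0.14 without QKI7 footprint replicate 1, and HSPD1 with vector was at -0.28 without vector footprint replicate 2. Leaving out QKI7 footprint replicate 1 or 2 kept HSPD1 with vector at -0.18. QKI7 libraries enter that comparison only through the scaling and the spread.

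Footprint levels of the listed mRNAs were then compared between QKI7 and vector cells. HSPA1A, DNAJB1, HSPB1, HSPH1 and HSP90AA1 were higher with QKI7, and HSPA8 and HSP90AB1 were lower. The change was largest for HSPA1A, and in the HSP70 pair the inducible HSPA1A rose while the constitutive HSPA8 fell. The inducible HSP90AA1 rose and the constitutive HSP90AB1 fell by less, and the HSP90AA1 change was 0.09 on the deposited TPM with no scaling (limma adjusted p = 0.444) and 0.13 without QKI7 footprint replicate 2. Of the 2712 mRNAs tested, 17.1% were called higher, 12.9% lower and 30% in either direction, so calls were common in this comparison. Groups of 2 libraries each often stand apart by chance, and the share of all mRNAs that did so was not counted. In footprints and inputs, groups without overlap thus only describe the values and are no further support. The median change of the 9 was 0.36 on the log2 scale, against -0.01 over all mRNAs. In bulk RNA, fewer cells with a transcript and less of it per cell cannot be told apart.

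HSPA1A was at 8.82 and 9.79 scaled TPM in QKI7 footprints and at 4.26 and 4.92 in vector footprints. Both QKI7 libraries lay above both vector libraries, and the log2 change was 1.01 ± 0.07 (SE, n = 2 each; 2.02-fold, limma adjusted p = 5.35e-05). DNAJB1 was at 0.417 and 0.362 scaled TPM with QKI7 and at 0.199 and 0.247 with vector. The groups did not overlap, with a log2 change of 0.69 ± 0.11 (1.61-fold, limma adjusted p = 0.00219). HSPH1 was at 0.353 and 0.373 scaled TPM with QKI7 and at 0.285 and 0.238 with vector. It was higher in both QKI7 libraries, by 0.41 ± 0.11 (1.33-fold, limma adjusted p = 0.0256). BAG3 was at 0.353 and 0.393 scaled TPM with QKI7 and at 0.247 and 0.314 with vector. These groups did not overlap either, but the change of 0.36 ± 0.13 was not called (limma adjusted p = 0.0623). DNAJB1, HSPH1 and BAG3 had footprints below 0.5 TPM, where the 2 decimals of the deposited values are a coarse step.

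HSPA8 went the other way, at 11.03 and 11.77 scaled TPM in QKI7 footprints and at 14.9 and 14.5 in vector footprints. Both QKI7 libraries lay below both vector libraries, with a log2 change of -0.36 ± 0.05 (0.776-fold, limma adjusted p = 0.00132). HSP90AB1 was at 9.62 and 9.09 scaled TPM with QKI7 and at 10.9 in each vector library. The groups did not overlap, with a log2 change of -0.22 ± 0.05 (0.861-fold, limma adjusted p = 0.00858). HSP90AA1 was at 3.53 and 4.11 scaled TPM with QKI7 and at 3.19 and 3.25 with vector. It was higher in both QKI7 libraries, by 0.24 ± 0.07 (1.18-fold, limma adjusted p = 0.0312). HSPB1, which holds unfolded proteins in a state that HSP70 can refold, was at 9.06 and 9.42 scaled TPM with QKI7 and at 6.76 and 6.88 with vector. Both QKI7 libraries were higher, by 0.44 ± 0.05 (1.35-fold, limma adjusted p = 0.000614). HSPD1 was at 3.09 and 3.32 scaled TPM with QKI7 and at 3.26 and 3.70 with vector. Its groups overlapped and the change of -0.11 ± 0.08 was not called (limma adjusted p = 0.297).

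Several of these calls rest on a spread shared between library types. Replicate footprints varied more than replicate inputs, with a median SD of 0.136 (log2) in QKI7 footprints and 0.131 in vector footprints, against 0.0583 in QKI7 inputs and 0.0672 in vector inputs. With footprints fitted alone, 15% of mRNAs were called, and of the listed mRNAs HSPA1A and HSPB1 were called higher and HSPA8 lower (limma adjusted p = 0.00131, 0.011 and 0.0134). DNAJB1, HSP90AB1, HSP90AA1 and HSPH1 were not called in that fit (limma adjusted p = 0.0672, 0.077, 0.19 and 0.217). Input libraries do not enter a footprint change, so leaving out an input library alters only the spread and the adjusted p, not the size. HSP90AA1 also lost its call without any 1 library other than QKI7 footprint replicate 1, and HSPH1 lost it without any 1 input library, QKI7 footprint replicate 2 or vector footprint replicate 2. BAG3 was called higher without vector footprint replicate 2 (0.51, limma adjusted p = 0.0195). HSPA1A was called in all 20 alternatives run, with log2 changes of 0.76 to 1.23.

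**Figure D3:**
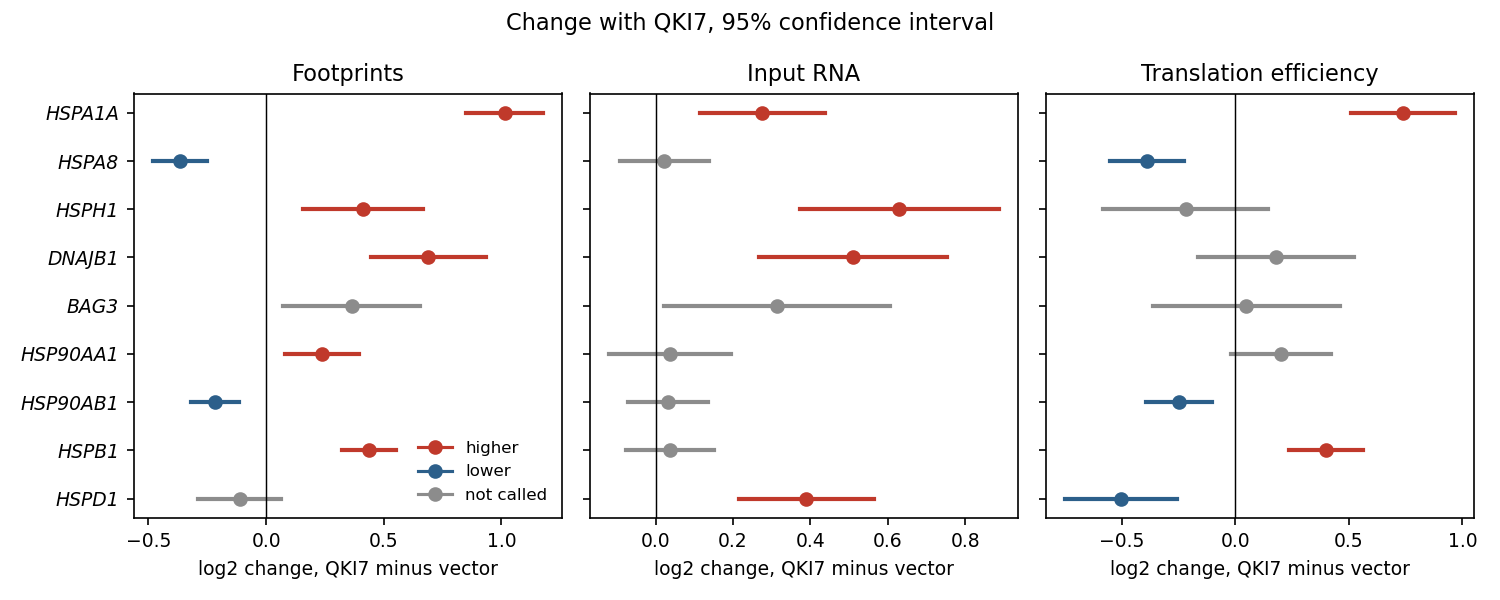
Log2 change of QKI7 over vector for the 9 mRNAs in footprints (left), input RNA (middle) and translation efficiency (right), with 95% confidence intervals; each panel has its own axis, and colours give the limma call at an adjusted p of 0.05. HSPA1A has the largest footprint change (1.01) and HSPA8 the lowest (-0.36), while HSPH1 has the largest input change (0.63).

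In input RNA, HSPH1, DNAJB1, HSPD1 and HSPA1A were higher with QKI7, and none of the 9 was called lower. Of all mRNAs tested, 2.14% were called higher, 6.23% lower and 8.37% in either direction. The median change of the 9 was 0.28 on the log2 scale, against 0.01 over all mRNAs. The constitutive pair HSPA8 and HSP90AB1, and also HSP90AA1 and HSPB1, had changes of 0.02 to 0.04.

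HSPH1 was at 15.5 and 14.7 scaled TPM in QKI7 inputs and at 9.73 and 9.78 in vector inputs. The groups stood apart, with a log2 change of 0.63 ± 0.11 (SE, n = 2 each; 1.55-fold, limma adjusted p = 0.0105). DNAJB1 was at 67.6 and 69.4 scaled TPM with QKI7 and at 47.9 and 48.2 with vector. It was higher in both QKI7 libraries, by 0.51 ± 0.11 (1.42-fold, limma adjusted p = 0.0221). HSPD1 was at 37.3 and 37.7 scaled TPM with QKI7 and at 28.5 and 28.8 with vector. It did not overlap between groups, with a log2 change of 0.39 ± 0.08 (1.31-fold, limma adjusted p = 0.0166). HSPA1A was at 451.2 and 451.5 scaled TPM with QKI7 and at 372.6 and 373.2 with vector. Its replicates were close and its groups apart, with a log2 change of 0.28 ± 0.07 (1.21-fold, limma adjusted p = 0.0492). BAG3 was at 10.7 scaled TPM in each QKI7 library and at 8.46 and 8.79 with vector. The groups did not overlap, but the change of 0.31 ± 0.13 was not called (limma adjusted p = 0.198).

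The other input levels were nearly the same in both constructs. HSPA8 was at 63.7 and 62.4 scaled TPM with QKI7 and at 61.4 and 62.8 with vector, and the groups overlapped. HSPB1 was at 62.0 and 63.1 with QKI7 and at 62.2 and 59.7 with vector, also with overlap. HSP90AB1 was at 164.1 and 162.9 with QKI7 and at 156.8 and 163.0 with vector. Of these groups too the ranges overlapped, and the 95% confidence interval of the log2 change was -0.07 to 0.13. HSP90AA1 was at 185.6 and 188.3 with QKI7 and at 182.2 and 182.3 with vector. Its groups were apart, but the change of 0.04 ± 0.07 was not called (limma adjusted p = 0.824). None of the 4 input calls held when any 1 of the 4 input libraries was left out, although sizes moved little (0.59 to 0.67 for HSPH1, and 0.273 to 0.276 for HSPA1A). With inputs fitted alone, 27.7% of mRNAs were called, BAG3 among them (limma adjusted p = 0.00468), and quantile normalization gave HSPA1A -1.09, because QKI took the top rank that HSPA1A held in vector inputs.

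Translation efficiency, the footprint change beyond the input change, was tested as the interaction of library type and construct. It was higher with QKI7 for HSPA1A and HSPB1, and lower for HSPD1, HSPA8 and HSP90AB1. Of all mRNAs tested, 9.11% were called higher, 3.36% lower and 12.5% in either direction, and the median of the 9 (0.05, log2) was near that of all mRNAs (0.03). HSPA1A changed by 0.74 ± 0.10 (SE, 1.67-fold, limma adjusted p = 0.00323), with footprints at 1.95% and 2.17% of input with QKI7 and at 1.14% and 1.32% with vector. HSPB1 changed by 0.40 ± 0.07 (limma adjusted p = 0.00918), with 14.6% and 14.9% with QKI7 and 10.9% and 11.5% with vector. For both genes the QKI7 percents lay above the vector percents. Each percent joins a footprint and an input library by replicate number, which did not pair the libraries. The percents thus only describe these calls.

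HSPD1 had the lowest translation efficiency change of the 9, at -0.50 ± 0.11 (0.706-fold, limma adjusted p = 0.019), with footprints at 8.29% and 8.81% of input with QKI7 and at 11.4% and 12.9% with vector. Its input level was higher with QKI7 while its footprint level was not called. HSPA8 changed by -0.39 ± 0.07 (limma adjusted p = 0.0107), with 17.3% and 18.9% with QKI7 and 24.3% and 23.0% with vector. HSP90AB1 changed by -0.25 ± 0.06 (limma adjusted p = 0.0373), with 5.86% and 5.58% with QKI7 and 6.94% and 6.66% with vector. In all 3 the percents of the constructs did not overlap, which again describes these calls and is no further support. DNAJB1 (0.18), HSP90AA1 (0.20), BAG3 (0.05) and HSPH1 (-0.22) were not called, with 95% confidence intervals of -0.17 to 0.52, -0.02 to 0.42, -0.36 to 0.46 and -0.58 to 0.14. HSP90AB1 kept its call only without QKI7 footprint replicate 1 among the 8 libraries left out in turn, HSPD1 lost it without any 1 input library (limma adjusted p = 0.0646 to 0.0771), and HSPA8 lost it without QKI7 input replicate 1 or vector input replicate 1 (limma adjusted p = 0.052 and 0.0521). HSP90AA1 was called higher without QKI7 footprint replicate 1 (0.32, limma adjusted p = 0.02). HSPA1A and HSPB1 kept their calls without any 1 library, but on the deposited TPM with no scaling HSPB1 was at 0.14 (limma adjusted p = 0.348) and HSPA1A at 0.48 (limma adjusted p = 0.0293).

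Ratios of 2 genes within a library do not depend on the scaling between libraries. HSPA1A over HSPA8, the inducible over the constitutive HSP70, was 0.799 and 0.832 in QKI7 footprints and 0.285 and 0.340 in vector footprints. In inputs the same ratio was 7.08 and 7.24 with QKI7 and 6.07 and 5.94 with vector. The ratio was thus above 1 in every input and below 1 in every footprint library, and higher with QKI7 in both. HSP90AA1 over HSP90AB1, the inducible over the constitutive HSP90, was 0.367 and 0.452 in QKI7 footprints and 0.293 and 0.2997 in vector footprints, without overlap. In inputs it was 1.13 and 1.16 with QKI7 and 1.16 and 1.12 with vector, and these groups overlapped. HSPA1A over DNAJB1 was 21.1 and 27.0 in QKI7 footprints and 21.4 and 19.9 in vector footprints, with overlap. In inputs that ratio was lower with QKI7, at 6.68 and 6.51 against 7.77 and 7.74 with vector. With 2 against 2 libraries an exact two-sided permutation test cannot go below 0.333, so no test is given for these ratios.

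**Figure D4:**
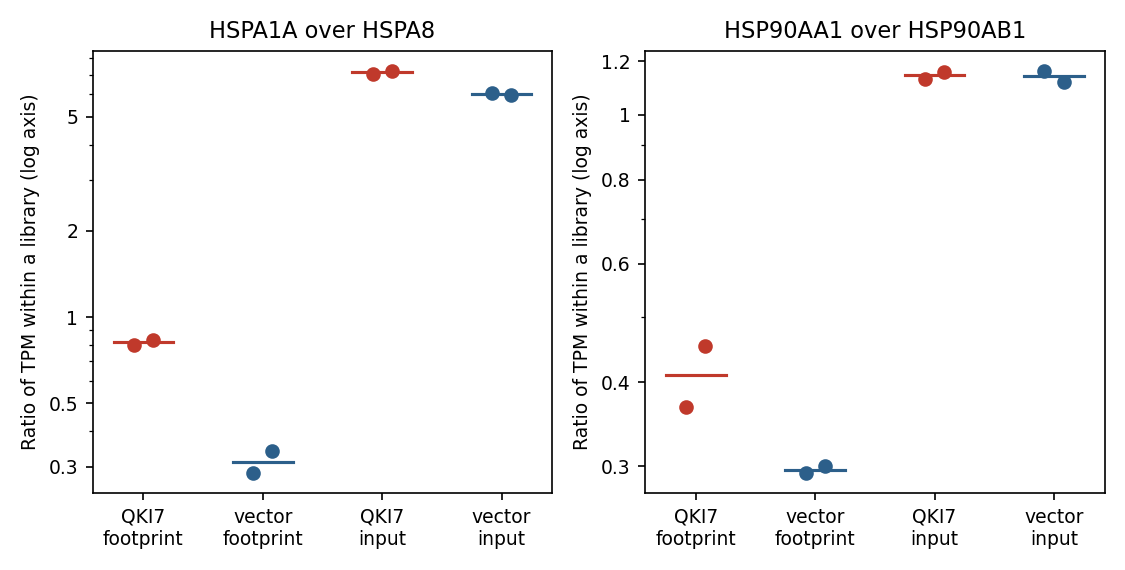
Ratio of TPM within each library (log axis) for HSPA1A over HSPA8 (left) and HSP90AA1 over HSP90AB1 (right); each point is 1 library and lines are group means, red for QKI7 and blue for vector. The HSPA1A over HSPA8 ratio is 0.799 and 0.832 in QKI7 footprints and 0.285 and 0.340 in vector footprints.

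Of 69 listed partners of these chaperones, 68 have a row and 35 were tested. In footprints, 5 of the 35 were called higher with QKI7 and 5 lower, against 17.1% higher and 12.9% lower over all mRNAs, so the counts were near the background, and the median log2 change was -0.04. HSF1, the transcription factor of the heat shock response, was at 0.588 and 0.611 scaled TPM in QKI7 footprints and at 0.161 and 0.285 in vector footprints. Both QKI7 libraries were higher, by 1.29 ± 0.19 (log2 ± SE, limma adjusted p = 0.00189). As deposited, its vector footprints were at 0.17 and 0.3 TPM, where 2 decimals are a coarse step. With a pseudocount of 1 TPM its footprint change was 0.39 and its translation efficiency change 0.64. In inputs HSF1 was at 7.79 and 8.30 scaled TPM with QKI7 and at 9.92 and 9.60 with vector, a change of -0.28 that was not called (limma adjusted p = 0.459), and its translation efficiency changed by 1.56 ± 0.27 (limma adjusted p = 0.00808). HSPA6, a strictly inducible HSP70, was higher in footprints by 1.27 (limma adjusted p = 0.000259), at 0.332 and 0.311 scaled TPM with QKI7 and at 0.114 and 0.0951 with vector. It passed the footprint filter only through the QKI7 libraries, as did CRYAB, so these calls are no independent support. CRYAB, a small heat shock protein, and STUB1, the ubiquitin ligase that binds HSP70 and HSP90, were also higher in footprints (0.81 and 0.64, limma adjusted p = 0.0184 and 0.0126), as was the mitochondrial HSP90 gene TRAP1 (0.41, limma adjusted p = 0.0373). TRAP1 lost its call without any 1 input library, QKI7 footprint replicate 2 or vector footprint replicate 2, and CRYAB without QKI7 footprint replicate 1 or vector footprint replicate 2. With footprints fitted alone TRAP1, STUB1 and CRYAB were not called (limma adjusted p = 0.2, 0.0885 and 0.0514). Leaving out an input library did not change the size of the TRAP1 footprint change, only its spread.

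The partners called lower in footprints included HSPA9, the mitochondrial HSP70 (-0.59, limma adjusted p = 0.00242), and the J-domain genes DNAJC9, DNAJC2 and DNAJB6 (-0.54, -0.46 and -0.37, limma adjusted p = 0.0191, 0.027 and 0.0297). With footprints fitted alone DNAJC9, DNAJC2 and DNAJB6 were not called (limma adjusted p = 0.111, 0.206 and 0.173). Leaving out an input library did not change the sizes of these footprint changes, only their spread. DNAJB6 kept its call only without vector footprint replicate 1 among the 8 libraries left out in turn, DNAJC2 only without QKI7 footprint replicate 1 or vector footprint replicate 1, and DNAJC9 lost it without either of those same libraries. No HSP90 co-chaperone of 11 tested was called in footprints, where 30% of all mRNAs were called in either direction. In inputs, 2 of the 35 were called higher and 2 lower, against 2.14% and 6.23% over all mRNAs. HSPE1, the mitochondrial partner of HSPD1 that caps its folding chamber, was higher by 0.40 ± 0.09 (limma adjusted p = 0.0333), near the 0.39 of HSPD1 itself. CHORDC1, an HSP90 co-chaperone, was higher by 0.53 (limma adjusted p = 0.0481), and the ubiquitin gene UBB was lower, at -0.39 (limma adjusted p = 0.00456). CHORDC1 lost its call without any 1 input library, HSPE1 without any input library other than QKI7 input replicate 2, and UBB without vector input replicate 1. In translation efficiency 3 of the 35 were called higher (HSF1, STUB1 and HSPA6) and 1 lower (HSPA9, -0.50, limma adjusted p = 0.0423), near the 9.11% and 3.36% over all mRNAs. Of these, HSPA9 kept its call only without QKI7 footprint replicate 2 among the 8 libraries left out in turn. STUB1 lost its call without QKI7 input replicate 2 or vector input replicate 1, and HSPA6 without QKI7 input replicate 1 or vector input replicate 1. HSPA6 passed the footprint filter only through the QKI7 libraries, so its translation efficiency call is no independent support. With a pseudocount of 1 TPM its translation efficiency change was -0.031. In translation efficiency HSPE1 had -0.44 (limma adjusted p = 0.061).

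The mRNAs whose levels over the 8 libraries, centred on their own mean, lay closest to the mean pattern of the 9 included TAF2, SYNPO, HMGXB4 and RFC1, at distances of 0.218 to 0.271 (log2). Of the listed genes themselves BAG3 was closest to that mean, at 0.248, and DNAJB1 farthest, at 3.97. The gap between footprints and inputs dominates this measure.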

How the data were processed

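The authors deposited 1 table of TPM with 2 decimals for 8 libraries. Per the submitters' processing notes, the tools were STAR and RSEM 1.2.31 and the build was GRCh38. How strand and reads shared by near-identical genes were handled is not given. Of the entries, 23970 matched a RefSeq symbol (GRCh38.p14), 1360 an older symbol and 1572 none.

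The 2712 mRNAs tested were protein-coding entries that averaged 1 TPM or more over inputs and 0.2 TPM or more over footprints. Each library's TPM was divided by a median-of-ratios factor set within its library type. limma 3.58.1 in R 4.3.3 was fitted to log2(scaled TPM + 0.05) over all 8 libraries in 4 groups with 4 residual degrees of freedom and a variance trend, so fold changes understate those of low values. P-values were two-sided and adjusted over the 2712 mRNAs by the Benjamini-Hochberg method, with a threshold of 0.05. The steps were tested on simulated data that gave footprints and inputs of a gene the same spread. The real footprints varied more than the inputs, which that test does not cover.

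The members and partner lists were chosen with earlier results of these data known. Named were all members, QKI, HSF1, up to 3 called genes of each partner list by size of change, and the 5 mRNAs nearest the members' mean pattern; some genes that this rule names are not reported here. Alternatives varied scaling, pseudocount, filter, variance model and libraries.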

Additional observations from a re-analysis of the deposited data

Results flagged for a closer look

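For 5 of the 9 listed mRNAs the effect of QKI7 differed between footprints and inputs by the interaction test of limma. Of all mRNAs tested, 12.5% were called in the same test. The difference of the log2 changes was 0.74 for HSPA1A and 0.40 for HSPB1, which were higher in footprints beyond their input change. It was -0.50 for HSPD1, -0.39 for HSPA8 and -0.25 for HSP90AB1. Each of these lower calls was lost when certain single libraries were left out. The causes of the differences were not tested.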

How the results depend on the processing

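All p-values here are limma's, adjusted over the mRNAs of each setting. HSPA1A in footprints kept its call in all 20 alternatives. The main counts were 813 mRNAs called in footprints, 227 in inputs and 338 in translation efficiency, and of the listed genes 5 higher and 2 lower, 4 higher and 0 lower, and 2 higher and 3 lower in the same order. With a pseudocount of 1 TPM, 469 were called in footprints (3 listed genes higher), 811 in inputs, 5 listed genes were lower in translation efficiency, and 0 were higher in footprints than in inputs in either construct. With all 5806 entries at a mean of 1 TPM, that pseudocount and no scaling, the calls were 476 in footprints (1 listed gene higher, 1 lower), 2587 in inputs, 1461 in translation efficiency (0 higher, 6 lower), and 4769 with QKI7 and 4719 with vector between footprints and inputs (0 higher in each). With the wider filter of 0.1 and 0.05 TPM they were 1445 in footprints (3 higher), 5758 with QKI7 and 5979 with vector between library types (2 higher in each), and 1 listed gene higher in inputs. The filter of 5 and 1 TPM tested 403 mRNAs and only 6 listed genes. Its calls were 179 in footprints (3 listed genes higher, 1 lower), 136 in inputs and 133 in translation efficiency. Between library types they were 353 with QKI7 (0 higher) and 344 with vector. Fitted separately, 407 were called in footprints (2 higher, 1 lower) and 752 in inputs. Weights by library type, chosen after seeing the data, gave 394 in footprints (3 higher, 1 lower) and 699 in inputs. Without a variance trend, 134 were called in inputs, with 1 listed gene higher there, 1 lower in footprints, and 1 higher and 0 lower in translation efficiency. On the deposited TPM with no scaling, 3 listed genes were higher in footprints and 1 in translation efficiency, and scaling by the protein-coding sum without QKI left 3 higher in footprints. Quantile normalization left 0 listed genes lower in footprints, 1 lower in inputs and 2 higher in footprints than in inputs with QKI7; the last count was also 2 with a pseudocount of 0.01 TPM. Leaving out 1 library gave 94 to 290 calls in inputs (0 to 4 listed genes higher), 134 to 422 in translation efficiency (0 to 3 lower), 3 to 5 listed genes higher in footprints and up to 2 higher in footprints than in inputs with QKI7.

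Signs turned for 33 values, of which 12 were past the threshold after turning. These 12 were the values for HSPB1 between library types with QKI7, those for HSPA8 there and with vector at a pseudocount of 1 TPM, HSPD1 with vector, HSPA1A in inputs, and in translation efficiency BAG3 over all entries and DNAJB1 in its last 2 settings. In translation efficiency BAG3 was at -0.19 on the deposited TPM, -0.028 with the protein-coding sum, -0.12 with quantile normalization, -0.18 with a pseudocount of 1 TPM, -0.32 over all entries, -0.016 without QKI7 footprint replicate 2 and -0.10 without vector footprint replicate 1, within a range of -0.10 to 0.20 over the libraries left out. DNAJB1 was at -0.059 on the deposited TPM, -0.039 with quantile normalization, -0.32 with a pseudocount of 1 TPM and -0.46 over all entries (adjusted p = 0.0178 and 0.0201 for the last pair). HSP90AA1 was at -0.056 on the deposited TPM and -0.074 over all entries, and HSPA6 at -0.031 with a pseudocount of 1 TPM and -0.16 over all entries. In inputs the wider filter gave -0.057 for HSP90AA1 and HSPB1, -0.062 for HSP90AB1 and -0.071 for HSPA8, and quantile normalization gave -1.09 for HSPA1A (adjusted p = 0.000116). HSPD1 in footprints was at 0.016 with quantile normalization and 0.0043 with the stricter filter. Between footprints and inputs with QKI7, HSPA8 was at -0.77 with a pseudocount of 1 TPM, -0.52 over all entries and -0.24 with the stricter filter, and HSPB1 at -1.03, -0.78 and -0.53 in the same settings. With vector, HSPA8 was at -0.40 with a pseudocount of 1 TPM and -0.073 over all entries, and the wider filter gave 0.11 for HSPB1 and 0.23 for HSPD1. A larger pseudocount lowers changes of low values by construction, and a filter changes the mRNAs that set the centre; otherwise the cause was not tested.

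Replicate numbers did not pair the libraries, with correlations of deviations between -0.05 and 0.02. The fit with the replicate block called 747 mRNAs in footprints, 195 in inputs and 309 in translation efficiency. Under the block the calls of HSP90AB1 in translation efficiency (adjusted p = 0.0592), CHORDC1 in inputs (0.0688) and TRAP1 in footprints (0.0546) were lost and that of HSPD1 between footprints and inputs with vector (0.0439) was gained. A sum of HSPA1A and HSPA1B was not run, as HSPA1B has no row, and translation efficiency has no version with library types fitted separately. Depth is unknown, so the limits it sets cannot be given.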
